A study of Mus musculus with 3 samples.

Results

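The genes described here are the 4 receptors of the epidermal growth factor (EGF) receptor family, Egfr, Erbb2, Erbb3 and Erbb4, and 6 of their ligands, Areg (amphiregulin), Ereg (epiregulin), Hbegf (heparin-binding EGF-like growth factor), Tgfa (transforming growth factor alpha), Btc (betacellulin) and Epgn (epigen). They were found by symbol and Ensembl ID, and all 10 were among the 30406 Ensembl IDs listed for every library. Nuclei were isolated from frozen whole corneas of mice at 7 weeks of age, with corneas of 5 mice pooled per group, and read with a 10x Genomics 3' kit. The 3 groups were wild-type mice without treatment (WT), untreated Aire knockout mice (KO), and Aire knockout mice treated for 14 days with phosphate-buffered saline (KO_PBS), so KO and KO_PBS share the knockout. The knockout allele, the strain and the way the saline was given are not named in the labels, the series text calls the untreated knockout a dry eye disease group, and it gives another age and treatment day than the sample labels. Each group was 1 library. No difference below therefore has a replicate check, no p-value is given, and intervals cover counting error only: those of a level are exact 95% Poisson intervals, and those of a log2 ratio are approximate.

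The EGF receptor family are receptor tyrosine kinases that act in pairs. The ligands are made as membrane-anchored precursors, are shed by ADAM proteases and bind the EGF receptor, with heparin-binding EGF-like growth factor, betacellulin and epiregulin also binding ErbB4. In the cornea, signalling through the EGF receptor drives epithelial cell migration and proliferation after wounding.

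The libraries held 256852883 UMIs (unique molecular identifiers, each standing for 1 captured transcript molecule) over 96587 barcodes in WT, 352627863 over 107031 in KO and 178988562 over 114357 in KO_PBS, with medians of 2253, 2970 and 1422 UMIs per barcode. Between 2833 and 3379 barcodes were shared by each pair of libraries, and leaving them out changed no call for any of the 10 genes. Aire itself gave 15, 27 and 68 UMIs in WT, KO and KO_PBS, and since the deleted part is not named these counts do not check the genotype. The corneal label was met by Krt12, the keratin of corneal epithelium, at 26121, 13793 and 6205 CPM (UMIs per 1000000). KO_PBS also held more RNA of neighbouring eye tissues: the 7 lens markers summed to 478 CPM in WT, 182 in KO and 7404 in KO_PBS, and the 8 photoreceptor markers to 147, 63.2 and 1866. The 8 basal and limbal epithelial markers summed to 12471, 10495 and 3993 CPM, and no marker on any list was at 0 in a library. In sums over a whole library, fewer cells of a type and less RNA per cell cannot be told apart.

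The genes are given with their positions in mm10 (GRCm38), read from the GENCODE M21 annotation. Epgn, Ereg, Areg and Btc lie together within 375.5 kb of chromosome 5, from 91027464 to 91402994. Egfr spans 166 kb of chromosome 11 (16752203 to 16918158, plus strand) and Erbb4 1076 kb of chromosome 1 (68032186 to 69108059, minus strand). Erbb2 is on chromosome 11 (98412470 to 98437716), Erbb3 on chromosome 10 (128567523 to 128589652) and Tgfa on chromosome 6 (86195223 to 86275719). Exons of Erbb2 overlap those of Mien1 on the opposite strand, and exons of Ereg those of the antisense gene Gm19610. Whether the counting used strand is not given in the sources used here, so counts of Erbb2 and Ereg may hold reads of those partners.

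The 250 bases before the start of Areg, Tgfa, Erbb4 and Egfr are shown because, by the fold of 2 used below, the first 3 were the genes called higher in KO than in WT and Egfr was the receptor called lower in KO_PBS than in KO. They are RefSeq promoters on GRCm38.p6, printed 5′ to 3′ on the strand of the gene, and capitals mark the motifs searched for. Promoters of 7 of the 10 genes were searched.
Areg, chr5:91139349-91139598, plus strand: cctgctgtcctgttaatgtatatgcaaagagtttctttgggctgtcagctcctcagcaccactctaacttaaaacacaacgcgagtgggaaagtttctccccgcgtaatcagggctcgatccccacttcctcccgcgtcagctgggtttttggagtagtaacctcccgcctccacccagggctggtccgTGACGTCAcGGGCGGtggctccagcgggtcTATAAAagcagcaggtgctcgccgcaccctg
Tgfa, chr6:86194972-86195221, plus strand: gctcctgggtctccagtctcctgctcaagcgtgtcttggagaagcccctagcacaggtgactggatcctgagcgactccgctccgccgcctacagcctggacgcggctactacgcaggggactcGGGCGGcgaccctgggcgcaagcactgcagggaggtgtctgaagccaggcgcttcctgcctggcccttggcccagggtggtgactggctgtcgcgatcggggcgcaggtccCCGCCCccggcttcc
Erbb4, chr1:69108060-69108309, minus strand: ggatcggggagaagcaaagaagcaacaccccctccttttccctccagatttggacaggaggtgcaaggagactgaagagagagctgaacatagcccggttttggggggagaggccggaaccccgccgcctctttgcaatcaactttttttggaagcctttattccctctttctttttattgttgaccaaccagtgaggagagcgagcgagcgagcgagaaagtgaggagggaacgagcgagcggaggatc
Egfr, chr11:16751953-16752202, plus strand: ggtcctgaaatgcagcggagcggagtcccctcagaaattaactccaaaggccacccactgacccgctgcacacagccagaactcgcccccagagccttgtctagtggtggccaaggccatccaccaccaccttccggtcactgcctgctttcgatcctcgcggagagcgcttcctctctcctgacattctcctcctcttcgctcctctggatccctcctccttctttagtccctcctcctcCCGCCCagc

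The motifs were searched on both strands, and no matches overlapped. Areg held a cAMP response element (TGACGTCA, 61 to 54 bases before the start), which was in 1.56% of all 32536 promoters, a TATA box (TATAAA, 31 to 26 bases before the start, in 12.3%) and a GC box (GGGCGG, in 33.0%). Tgfa held 2 GC boxes and Egfr 1. Erbb4 held none of the 5 motifs, which also included an AP-1 site (TGANTCA, in 6.73%) and a GAS element (TTCNNNGAA, in 7.04%). A match describes the letters in this window and is not a measured site.

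A difference between libraries was called when the gene had at least 50 UMIs over both, a fold of at least 2 and intervals that did not overlap. In KO against WT, 3 of the 10 genes were called higher (Erbb4, Areg and Tgfa) and 0 lower, where 20.6% of the 20252 genes tested were called higher and 8.63% lower. In KO_PBS against KO, 0 were called higher and 2 lower (Egfr and Epgn), against 39.9% and 4.7% of genes. In KO_PBS against WT, 2 were called higher (Erbb4 and Tgfa) and 1 lower (Epgn), against 57.0% and 4.06% of genes. The 3 comparisons share libraries and are not independent. The median gene was not at 0 but at a log2 ratio of 0.24 in KO against WT, 0.63 in KO_PBS against KO and 1.27 in KO_PBS against WT, so each value below is to be read against that shift. Centred on the median gene, the counts were 2 higher (Areg and Tgfa) and 0 lower in KO against WT, against 14.8% and 12.9% of genes. They were 0 higher and 5 lower in KO_PBS against KO (Egfr, Erbb3, Areg, Tgfa and Epgn), against 29.9% and 12.9%. They were 0 higher and 5 lower in KO_PBS against WT (Egfr, Erbb2, Erbb3, Btc and Epgn), against 29.6% and 23.1%.

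**Figure D1:**
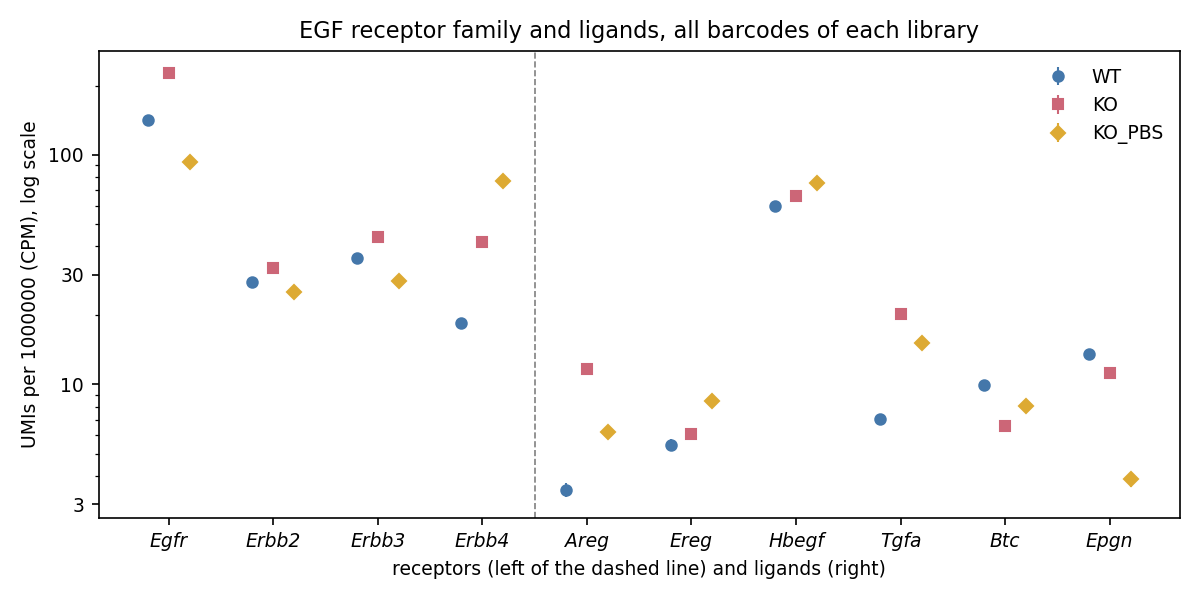
CPM (log scale) of the 4 receptors and 6 ligands over all barcodes of each library, with 95% Poisson intervals, most of which are smaller than the symbols. Erbb4 is lowest in WT (18.5) and highest in KO_PBS (77.3), while Egfr is highest in KO (228) and lowest in KO_PBS (93.6).

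**Figure D2:**
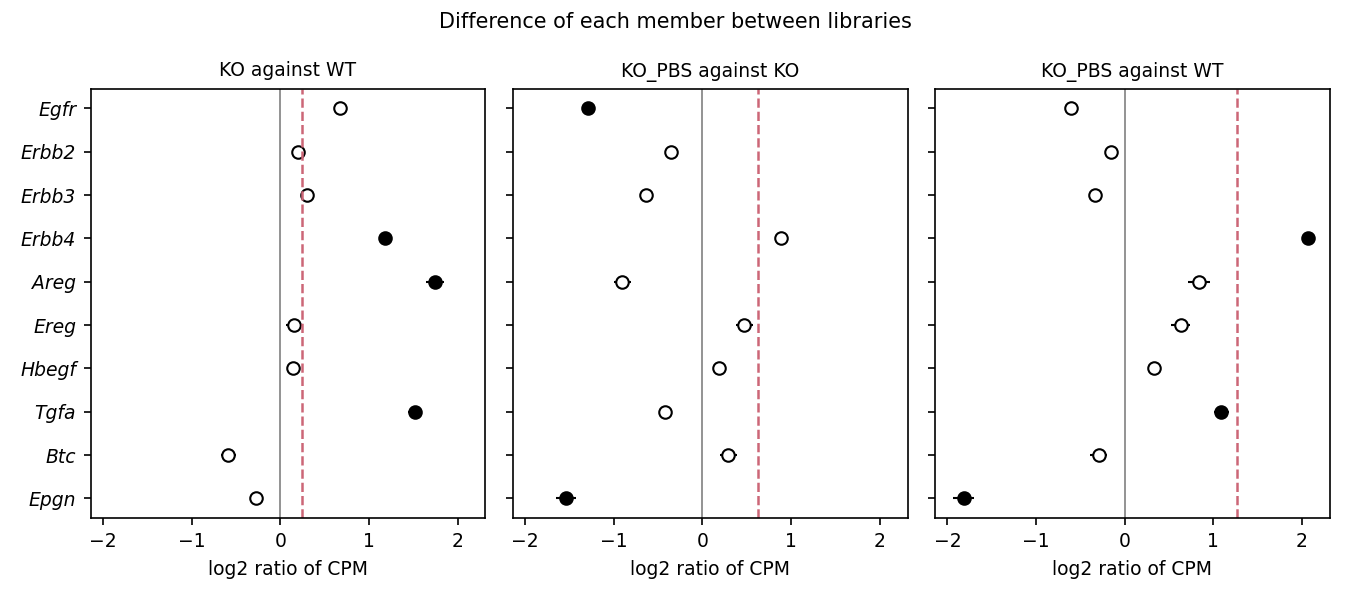
Log2 ratio of CPM of each gene in the 3 comparisons, with 95% counting intervals; filled points were called and open points were not, and the dashed line is the median of all genes tested. Of the 10 genes, only Erbb4 lies to the right of the dashed line in both comparisons with KO_PBS.

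Egfr encodes the EGF receptor, which binds all 6 ligands studied here. It stood at 143 CPM in WT (36487 UMIs), 228 in KO (80216 UMIs) and 93.6 in KO_PBS (16639 UMIs). KO was the high library and KO_PBS the low one, and no intervals overlapped. The log2 ratio was 0.68 in KO against WT, which was under the fold of 2, and −1.29 in KO_PBS against KO, percentile 3.44 of all genes tested. KO_PBS against WT gave −0.61, which was not called. Erbb2, a receptor with no known ligand that pairs with the others, was nearly level, with 28.1 CPM in WT, 32.3 in KO and 25.3 in KO_PBS. Erbb3, which binds neuregulins and has little kinase activity of its own, had 35.4, 43.8 and 28.2 CPM in the same order. Both followed the order of Egfr, highest in KO and lowest in KO_PBS, and neither was called in any comparison before centring.

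Erbb4, a receptor for neuregulins and for some of the EGF-like ligands, had another order. Its level was 18.5 CPM in WT (4731 UMIs), 41.8 in KO (14677 UMIs) and 77.3 in KO_PBS (13740 UMIs). The log2 ratio was 1.18 in KO against WT, 0.89 in KO_PBS against KO and 2.06 in KO_PBS against WT, of which the first and last were called. Stromal markers were also above WT in both knockout libraries: C1qtnf7, Pde7b and Chsy3, genes of a stromal fibroblast set, summed to 89.6, 283 and 220 CPM in WT, KO and KO_PBS, and the 9 keratocyte markers to 1297, 4213 and 2557. The part of these stromal markers in the level of Erbb4 was not tested. Summed over the 4 receptors, WT had 225 CPM, KO 346 and KO_PBS 224. WT and KO_PBS thus gave nearly the same sum, with less Egfr and more Erbb4 in KO_PBS.

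The differences with KO_PBS were set beside gene length, in a comparison added after the values were seen. Among the 583 genes spanning over 300 kb, the class of Erbb4, the median log2 ratio was 1.54 in KO_PBS against KO and 2.05 in KO_PBS against WT. Erbb4 lay at percentiles 38.4 and 50.4 of that class, and at percentile 88.2 in KO against WT, where the class median was 0.18. Among genes of over 100 and up to 300 kb, the class of Egfr, the median in KO_PBS against KO was 0.71 and 1.65% of the 2121 genes were called lower. Egfr was at percentile 1.04 of that class. The part of gene length in either result was not tested. KO_PBS also has another gene list than WT and KO, and its annotation and treatment of intronic reads are not given in the sources used here, so a difference in the reference or its settings cannot be told apart from the saline treatment in any comparison with KO_PBS, Egfr, Erbb4 and Epgn included. Gm16076, a gene inside an intron of Erbb4 on the same strand that only the WT and KO gene lists hold, had 0 UMIs in WT and 2 in KO.

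Areg, a ligand of the EGF receptor known as an autocrine growth factor of epithelial and immune cells, had 3.47 CPM in WT (888 UMIs), 11.6 in KO (4092 UMIs) and 6.21 in KO_PBS (1104 UMIs). KO stood above both other libraries, and the log2 ratio of 1.75 against WT (3.36-fold) was the largest of the 10 genes in that comparison. KO_PBS against KO gave −0.91, which passed the rule only after centring. Tgfa, a ligand long known from the epithelium of skin and cornea, had 7.09 CPM in WT (1815 UMIs), 20.3 in KO (7139 UMIs) and 15.1 in KO_PBS (2687 UMIs). Both knockout libraries lay above WT. Immune cell markers also lay above WT in both, with the 8 macrophage markers summing to 75.4, 833 and 797 CPM in WT, KO and KO_PBS and the 10 T cell markers to 8.11, 141 and 148. The 5 plasma cell markers summed to 1.15, 1220 and 82.4 CPM, and 2067 barcodes of KO were rich in them. The order of Areg, lowest in WT and highest in KO, was that of these markers. It was also that of the macrophage, B cell, keratocyte and cycling markers, among others, so it is not particular to any of them. The part of these markers in the levels of Areg and Tgfa was not tested. The log2 ratio of Tgfa was 1.52 in KO against WT (2.87-fold) and 1.09 in KO_PBS against WT, and the latter turned to −0.18 when centred on the median gene.

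Epgn, a low-affinity ligand of the EGF receptor, had 13.6 CPM in WT (3481 UMIs), 11.2 in KO (3943 UMIs) and 3.86 in KO_PBS (686 UMIs). KO_PBS was the low library, 2.91-fold under KO and 3.53-fold under WT. Those log2 ratios, −1.54 and −1.82, were at percentiles 2.81 and 1.45 of all genes tested. Among genes spanning up to 10 kb, the class of Epgn, 10.7% and 8.27% were called lower, and Epgn was at percentiles 7.34 and 3.54. The sum of the 8 basal and limbal epithelial markers was also lowest in KO_PBS (3993 CPM, with 12471 for WT and 10495 for KO). Krt5 was the largest of them (8829 for WT, 6456 for KO and 2164 for KO_PBS), while Krt14, Trp63 and Lamb3 were lowest in WT. The sum of the 6 corneal epithelial markers had the same order (43000 CPM for WT, 28446 for KO and 21198 for KO_PBS), so it is not particular to the basal list. Krt12 was the largest of the 6 (26121 for WT, 13793 for KO and 6205 for KO_PBS), and Dsg1a had the same order. Aldh3a1 was highest in KO_PBS and Dsp in KO, while Slurp1 and Tkt were lowest in KO. The part of either list in the level of Epgn was not tested. Btc, which binds both the EGF receptor and ErbB4, had 9.93, 6.61 and 8.09 CPM in WT, KO and KO_PBS and was the ligand with the lowest ratio in KO against WT, at −0.59. Ereg had 5.47, 6.11 and 8.47 CPM, and Hbegf, a ligand released rapidly at wound edges, 60.2, 66.3 and 75.5 CPM. Ereg and Hbegf were lowest in WT and highest in KO_PBS, with log2 ratios from 0.14 to 0.63 that all turned negative (−0.94 to −0.08) when centred on the median gene.

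The ligands were set against the receptors by their medians. The median log2 ratio of the 4 receptors was 0.49 in KO against WT, and that of the 6 ligands 0.15. In KO_PBS against KO the medians were −0.50 and −0.12, and in KO_PBS against WT −0.24 and 0.48. Within each set the members ranged widely: in KO against WT the receptors ran from 0.20 to 1.18 and the ligands from −0.59 to 1.75. The summed ligands were at 99.7 CPM in WT, 122 in KO and 117 in KO_PBS.

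To see where in the cornea the genes were read, barcodes were sorted by 20 lists of marker genes. A barcode counted as marker-rich when it held more UMIs of a list than its library's share of that list gives (Poisson tail under 1e-06, at least 3 UMIs), which is a range of a score and not a cell type. Barcodes rich in no list were 93.9%, 93.4% and 97.1% of those in WT, KO and KO_PBS, and marker-rich barcodes were compared with them by the same rule. Doublets were not called or removed. The marker-rich barcodes still held RNA of other types: in WT the keratocyte-rich barcodes had 392 UMIs of the 6 corneal epithelial markers per 10000, and the epithelium-rich ones 588. Of the pairs of a gene and a list, WT had 12 of 160 called higher, KO 4 of 140 and KO_PBS 29 of 170. Over all genes, 3.25%, 1.48% and 5.41% of the gene and list pairs that passed the UMI minimum were. Pairs of the 10 genes called lower were 2, 4 and 5, against 0.657%, 0.926% and 1.71%. All 10 genes were called higher in some list of some library, Erbb4 in 10 pairs and Epgn in 1. The share of all genes called in at least 1 pair was not counted, so whether this is unusual is not known.

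Hbegf stood out in barcodes rich in superficial epithelial markers (Upk1b, Muc4, Muc16, Cnfn, Krt78 and Sprr1a). There it was at 440 CPM in WT (117 UMIs, 49 barcodes), 345 in KO (270 UMIs, 144 barcodes) and 741 in KO_PBS (431 UMIs, 160 barcodes). A further 97, 108 and 152 barcodes lay just outside the threshold (tail from 1e-06 to 1e-04). In barcodes rich in no list Hbegf was at 59.8, 66.3 and 73.7 CPM. The superficial barcodes were thus 7.36-fold, 5.20-fold and 10.0-fold higher, the same direction in each library, where 3.08%, 1.86% and 4.57% of genes were called higher in those barcodes. Between libraries, the superficial level of Hbegf was called higher in KO_PBS than in KO (log2 ratio 1.10, interval 0.88 to 1.32) and was not called in KO against WT (−0.35). The superficial barcodes of KO were led by Sprr2d, Sprr2f and Cnfn and those of KO_PBS by Plet1os, Slc5a1 and Slc1a1, with Hbegf itself among the 10 leading genes of KO_PBS and no leading gene in common, so the 2 sets may not be alike. In the other epithelial lists Hbegf was called higher in 1 case, the conjunctival barcodes of KO_PBS (180 CPM). Tgfa had the same superficial pattern in both knockout libraries, at 66.3 CPM in KO (52 UMIs) against 20.4 in barcodes rich in no list and at 41.2 CPM in KO_PBS (24 UMIs) against 14.9. In WT the superficial barcodes held only 4 UMIs of Tgfa, at 15.0 CPM.

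Ereg and Areg were higher in barcodes rich in conjunctival and basal markers in WT and KO_PBS. In WT, 3 of the 10 leading genes of the basal and limbal barcodes were conjunctival markers and 1 was of their own list, so the 2 lists were not well parted there. Ereg was at 63.8 CPM in conjunctival barcodes of KO_PBS (40 UMIs), 7.75-fold over barcodes rich in no list, and at 15.9 CPM in those of WT (22 UMIs), 2.96-fold over. In KO the conjunctival barcodes had 9.96 CPM (13 UMIs), which was not called. Areg was at 19.5 CPM in conjunctival barcodes of WT (27 UMIs) and at 25.5 CPM in those of KO_PBS (16 UMIs), 5.90-fold and 4.14-fold over. It was also higher in barcodes rich in basal and limbal markers in WT (12.6 CPM) and KO_PBS (14.2 CPM).

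Erbb4 was higher in barcodes rich in the C1qtnf7 stromal set in every library, although most of its UMIs lay in barcodes rich in no list (3654 of 4731 in WT, 13258 of 14677 in KO, 12218 of 13740 in KO_PBS). In barcodes rich in C1qtnf7, Pde7b and Chsy3 it was at 387 CPM in WT (336 UMIs, 199 barcodes), 215 in KO (216 UMIs, 213 barcodes) and 316 in KO_PBS (168 UMIs, 205 barcodes). Another 224, 435 and 245 barcodes lay just outside the threshold. Barcodes rich in no list had 15.8, 41.3 and 72.9 CPM. The set was thus 24.5-fold, 5.21-fold and 4.33-fold higher, where 8.93%, 2.52% and 4.59% of genes were called higher in it, and Erbb4 was among its 10 leading genes in WT and KO. The level in the set differed between libraries by less than the fold of 2 (log2 ratio −0.85 in KO against WT and 0.55 in KO_PBS against KO). KO_PBS against WT gave −0.29 in the set, while its barcodes rich in no list lay above those of WT. The leading genes of the set in KO_PBS shared only C1qtnf7, Pde7b and Chsy3 with those of WT and KO. The sets may thus not be alike. Keratocyte-rich barcodes of WT had 62.1 CPM, 3.93-fold over the rest, while those of KO (74.7 CPM) and KO_PBS (128 CPM) were not called. In skeletal muscle-rich barcodes Erbb4 was higher in each library, at 94.3 CPM in WT (14 UMIs), 113 in KO (12 UMIs) and 511 in KO_PBS (93 UMIs).

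KO_PBS differed from the other libraries in where else Erbb4 was read. Corneal endothelium-rich barcodes had 245 CPM there (661 UMIs) against 39.1 in KO (50 UMIs) and 18.3 in WT (44 UMIs), and melanocyte-rich ones 265 CPM (243 UMIs) against 32.7 and 19.6. Both differences were called between libraries. The barcodes compared were led by different genes: those rich in melanocyte markers by Pmel, Dct and Tyrp1 in KO and by Kcnip4, Npsr1 and Gm49678 in KO_PBS, with no leading gene in common, and those rich in corneal endothelial markers by Car3, Slc4a11 and Cldn10 in KO and by Col4a3, Fgf10 and Grm8 in KO_PBS. Genes as long as Erbb4 were also higher in KO_PBS as a class, as given above, and the sets may not be alike. The markers of those lists were themselves higher in KO_PBS: the corneal endothelial list summed to 528, 423 and 1833 CPM in WT, KO and KO_PBS and the melanocyte list to 481, 139 and 4109, and their part in the result was not tested. In barcodes rich in corneal epithelial markers Erbb4 was called lower than in the rest in KO (20.0 CPM) and KO_PBS (34.4 CPM). Those of KO_PBS had 0 of their own markers among their 10 leading genes.

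Egfr in KO_PBS against KO was called higher in 1 list, basal and limbal epithelium, and lower in barcodes rich in markers of several other tissues. In KO against WT the 3 epithelial lists compared and the barcodes rich in no list all had more Egfr in KO. In barcodes rich in no list WT had 143 CPM, KO 232 and KO_PBS 90.9, so KO_PBS was the low library there. In barcodes rich in basal and limbal markers KO_PBS had 368 CPM (286 UMIs) and KO 171 (360 UMIs). The log2 ratio of 1.10 (interval 0.88 to 1.33) was called higher. Those barcodes were led by Sprr2a3, Krt15 and S100a9 in KO and by Chst9, Krt15 and Lama3 in KO_PBS. Only Krt15 and Krt17 were leading genes of both, so these sets may not be alike. The conjunctival barcodes had 110, 208 and 225 CPM in WT, KO and KO_PBS and the superficial ones 71.4, 148 and 199, and KO_PBS against KO was not called in either. The superficial level was called higher in both knockout libraries than in WT, where it rested on 19 UMIs. KO_PBS was called lower than KO in 8 lists: the C1qtnf7 set, corneal endothelium, melanocyte, retinal pigment epithelium, photoreceptor, lens, skeletal muscle and macrophage. Their log2 ratios ran from −1.77 to −1.09, and barcodes rich in no list were also lower in KO_PBS (90.9 against 232 CPM). Of all gene and list pairs with at least 50 UMIs, 6.35% were called lower in that comparison. Marker-rich barcodes also held RNA of other types, and its part in these levels of Egfr was not tested. The sets of a list may not be alike: photoreceptor-rich and melanocyte-rich barcodes had no leading gene in common between KO and KO_PBS. Lens-rich ones shared Cryaa and Crybb2 among others. Within KO_PBS, Egfr was called higher than in barcodes rich in no list for all 4 epithelial lists and for cycling genes (412 CPM, 41 UMIs), with 0 of the corneal epithelial list's own markers among the 10 leading genes of its barcodes, while in WT and KO it was higher in 0 lists. In WT the superficial barcodes were called lower (71.4 against 143 CPM). Whether the difference between lists exceeds that between replicate libraries was not tested.

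**Figure D3:**
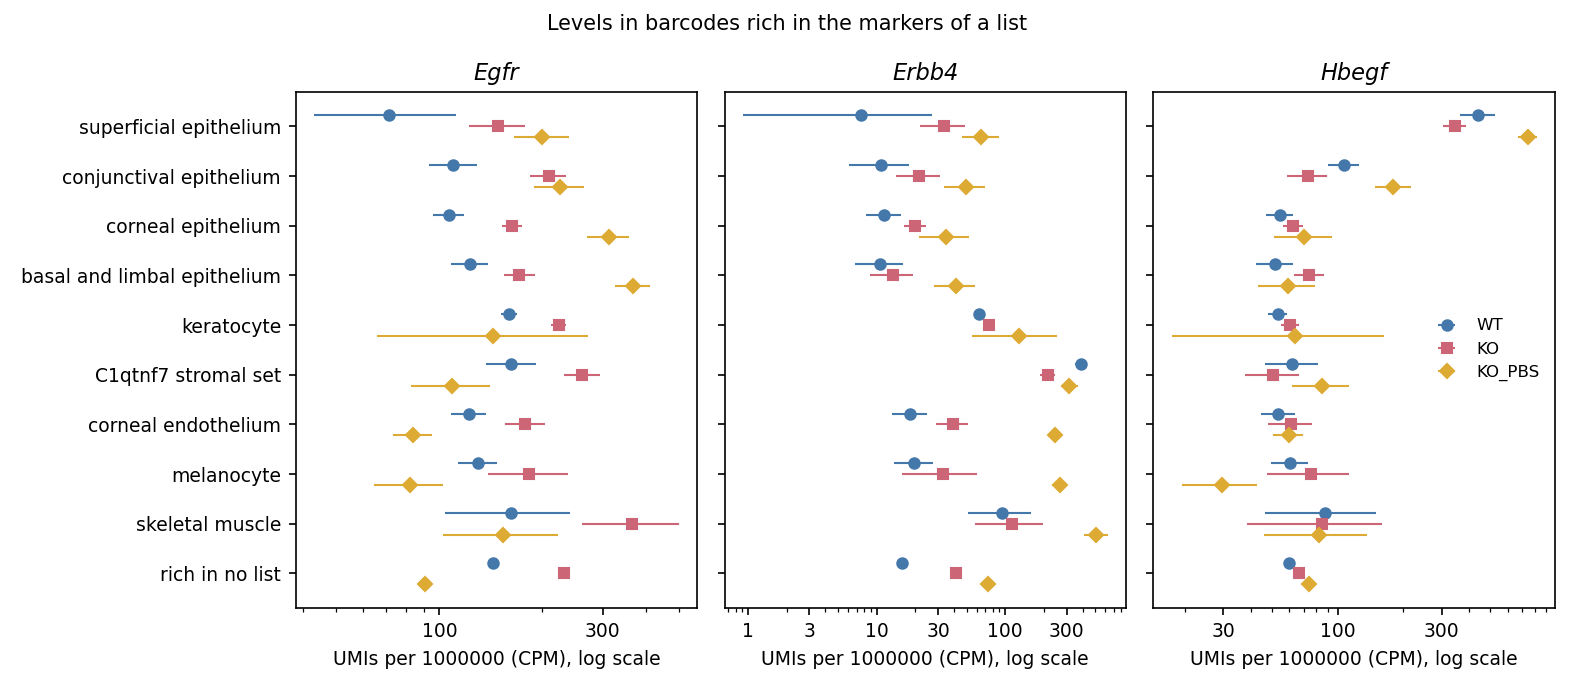
Levels of Egfr, Erbb4 and Hbegf in CPM (log scale) in barcodes rich in the markers of 9 lists and in barcodes rich in no list, per library, with 95% Poisson intervals. Hbegf is highest in superficial barcodes of every library (345 to 741), Erbb4 is high in the C1qtnf7 set of every library (215 to 387), and Egfr in KO_PBS is higher in the 4 epithelial lists (199 to 368) than in barcodes rich in no list (90.9).

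Erbb3 followed the epithelium as well in KO_PBS, at 64.3 to 87.7 CPM in the 4 epithelial lists against 27.6 in barcodes rich in no list. In WT it was called higher in Schwann-rich barcodes alone, at 97.5 CPM (11 UMIs, 20 barcodes) against 35.7. Erbb3 is the neuregulin receptor of Schwann cells. Erbb2 was called higher in corneal epithelial (57.8 CPM) and conjunctival (62.2 CPM) barcodes of KO_PBS. Btc was called higher in superficial barcodes of WT (26.3 CPM, 7 UMIs). In KO_PBS, Btc was called higher in superficial (27.5 CPM, 16 UMIs), conjunctival (23.9 CPM, 15 UMIs) and photoreceptor-rich (18.0 CPM, 28 UMIs) barcodes. Epgn was called higher in corneal epithelial barcodes of KO_PBS (10.9 CPM, 7 UMIs). The corneal epithelial barcodes of KO_PBS had 0 of their own markers among their 10 leading genes, as given above.

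Levels were also compared between libraries within each list, leaving out WT barcodes rich in basal and limbal markers and KO_PBS barcodes rich in corneal epithelial markers, whose 10 leading genes held more markers of another list than of their own. Of 120 pairs of a gene and a list, 10 were called higher and 1 lower in KO against WT. Of all gene and list pairs with at least 50 UMIs, 16.0% and 2.94% were. The 120 pairs also include any with fewer UMIs, which could not be called. These shares and those below are thus not on the same base as the 120. The pair called lower was Btc in corneal epithelial barcodes (4.16 CPM in KO and 13.7 in WT). Tgfa was called higher in KO than in WT in corneal epithelial (19.1 and 5.87 CPM), superficial (66.3 and 15.0) and keratocyte-rich (15.4 and 6.40) barcodes, and Areg in keratocyte-rich ones (9.20 and 2.82). In KO_PBS against KO 10 pairs were called higher and 10 lower, against 19.6% and 6.35%. In KO_PBS against WT 13 were called higher and 4 lower, against 33.6% and 8.33%. Of those 13, 6 were Erbb4.

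The UMIs of a gene can sit together in few barcodes or spread with the depth of the barcodes. Barcodes with at least 2 UMIs of Erbb4 were 4.79 times as many in WT as an even spread gives (709 barcodes), 2.29 times in KO (2409) and 2.08 times in KO_PBS (1836). Up to 13, 14 and 19 UMIs of Erbb4 were read in 1 barcode. Egfr was spread nearly evenly in WT (1.11) and KO (1.01) and less so in KO_PBS (1.55). Hbegf had ratios of 1.27, 1.08 and 1.31, yet barcodes with up to 11, 13 and 21 of its UMIs. The ratio was highest in KO_PBS for 9 of the 10 genes, all but Erbb4. It was not computed for other genes, so whether this order is particular to the 10 genes is not known. For Erbb2, Erbb3, Ereg and Epgn it was 1.40 to 3.69 there, 1.00 to 1.46 in WT and 0.98 to 1.12 in KO. Tgfa was at 1.89 in KO_PBS, 1.36 in WT and 1.30 in KO, and Btc at 2.11, 1.29 and 1.23. Areg was at 3.42 in WT, 1.57 in KO and 3.58 in KO_PBS, from 19, 141 and 23 barcodes.

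**Figure D4:**
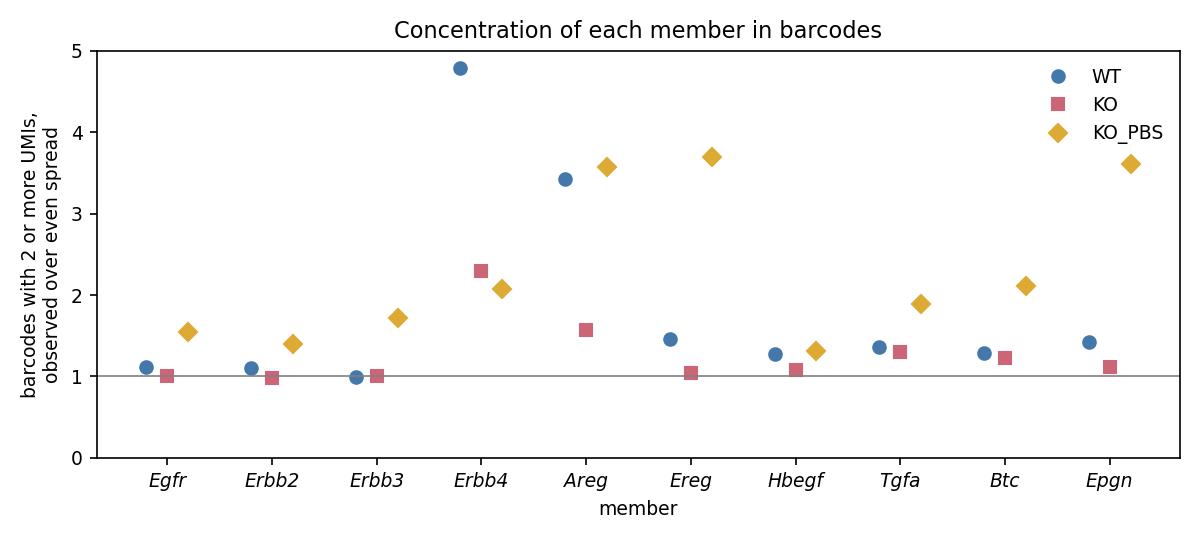
Number of barcodes with at least 2 UMIs of a gene over the number that an even spread by barcode depth would give, per gene and library, with a line at 1. Erbb4 lies above 2 in every library (2.08 to 4.79), and Egfr, Erbb2 and Erbb3 are near 1 in WT and KO.

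Genes with the most similar pattern were taken from 10187 candidates as those with the highest Pearson correlation of log2(CPM + 1), centred within each library, over 50 pools of barcodes (a marker list in a library). The pools share libraries and depth, so these values are a description. Hbegf was most like Plet1 (r = 0.92), Prss22 (0.91) and Zfand5 (0.90). Egfr was most like Chst9 (0.82), Ikzf2 (0.82) and Net1 (0.80), and Erbb4 was most like Pde4d (0.79), Zfhx4 (0.79) and Rbms3 (0.79). Erbb3 was most like Nectin4 (0.85), an epithelial adhesion protein, Tax1bp3 (0.84) and Gna15 (0.84), and Erbb2 like Plek2 (0.84), Pak6 (0.80) and Ankrd50 (0.77). Ereg was most like the membrane mucin Muc1 (0.74), Capn5 (0.70) and Rassf7 (0.69). Of the other ligands, Areg was nearest to Cmas (0.71), Omp (0.69) and Phactr4 (0.65), Tgfa to Kdm4b (0.70), Ankdd1b (0.70) and Pus1 (0.69), Btc to Mus81 (0.75), Nrarp (0.72) and Fbxo34 (0.70), and Epgn to Tppp (0.76), Cyp3a13 (0.73) and Eef1akmt2 (0.71).

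Around the 10 genes, 53 genes of the pathway were read in 5 lists, all of which passed the UMI minimum. In KO against WT, 19 of the 53 were called higher (35.8%, beside the 20.6% of all genes) and 0 lower, with a median log2 ratio of 0.72 against 0.24 for all genes. Centred on the median gene, 10 were higher and 2 lower, beside 14.8% and 12.9% of all genes. The response genes, which signalling through MAP kinase is known to induce, had 7 of 13 called higher and 0 lower. The macrophage, T cell, plasma cell and keratocyte markers were higher in KO too, as given above, and their part in these counts was not tested. Egr1, an immediate early transcription factor, was at 6.99 CPM in WT, 41.8 in KO and 22.2 in KO_PBS. Fosl1, a subunit of AP-1, was at 0.281, 6.44 and 5.76 CPM, and Plaur, the urokinase receptor, at 0.645, 6.61 and 5.37. For these 3 genes both knockout libraries lay above WT, although in KO_PBS against WT, centred on the median gene, Egr1 (0.40) was no longer called while Fosl1 and Plaur were. The phosphatases Dusp5 (21.3 and 43.8 CPM in WT and KO) and Dusp6 (12.0 and 30.3), which switch off MAP kinases, and Myc (3.09 and 8.58) were also called higher in KO.

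Among inhibitors of the receptors and the pathway, 6 of 13 were called higher in KO than in WT and 0 lower, beside 20.6% and 8.63% of all genes. Centred, 1 of 13 was called higher, beside 14.8% of all genes. Cblb and Cbl, ubiquitin ligases that mark activated receptors for breakdown, were at 16.3 and 34.0 CPM in WT and at 62.2 and 70.6 in KO. Errfi1, a direct inhibitor of the EGF receptor kinase, was at 23.4 and 54.4 CPM, Spry2 at 6.08 and 13.2 and Socs5 at 7.03 and 15.1. Of the 4 shedding genes 2 were called higher, the protease Adam10 (34.0 CPM in WT and 86.0 in KO) and Rhbdf2 (8.10 and 16.5), which brings the protease Adam17 to the cell surface. Of the 18 signal relay genes 4 were called higher (22.2%), a share near the 20.6% of all genes, and 2 when centred. The 4 were the adaptor Shc1 (8.72 and 19.1 CPM), the exchange factor Sos1 (17.2 and 35.2), the lipid kinase subunit Pik3ca (20.0 and 51.5) and the transcription factor Stat3 (46.0 and 128). Centring left Adam10, Pik3ca, Stat3, Cblb and all named response genes but Dusp5 called higher.

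Of the 5 other ligands of the family, 0 were called in KO against WT, beside 20.6% of all genes called higher and 8.63% lower. Centred, 2 of the 5 were called lower, Nrg3 (−1.08) and Nrg4, beside 12.9%. In KO_PBS against KO 2 of the 53 pathway genes were called higher (3.77%) and 0 lower, beside 39.9% and 4.7% of all genes. Both were ligands: Nrg3 was at 7.62 CPM in WT, 4.27 in KO and 50.3 in KO_PBS, and Nrg4 at 1.70, 1.01 and 3.54. They encode neuregulins of the kind that bind ErbB4. As in every comparison with KO_PBS, a difference in the reference or its settings cannot be told apart from the saline treatment. The part of gene length or of RNA from neighbouring eye tissues in these 2 differences was not tested. Centred, 2 were higher and 7 lower, beside 29.9% and 12.9% of all genes. In KO_PBS against WT 26 of 53 were called higher and 1 lower, Hras (399 CPM in WT and 190 in KO_PBS), beside 57.0% and 4.06% of all genes; centred, 3 were higher and 10 lower, beside 29.6% and 23.1%.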

How the data were processed

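Nuclei were read with 10x Genomics 3' chemistry (v3), per the labels' protocols. What the authors deposited are UMI counts, 1 whole number for each gene in each barcode with no normalization. They were made with Cell Ranger 7.0.1 on mm10, per the submitters' processing notes. The annotation, the barcode filter and the treatment of intronic reads are not given in the sources used here. The lists held 32285 genes for WT and KO and 31053 for KO_PBS; the 30406 common Ensembl IDs held 99.6%, 99.6% and 99.3% of UMIs.

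From the counts, UMIs were summed over all barcodes, or over marker-rich barcodes of lists with at least 20 barcodes and 20000 UMIs, and scaled to 1000000 UMIs (CPM). The call rule (50 UMIs, fold of 2 with counts below 3 set to 3, exact 95% Poisson intervals apart) is a rule of size, not a test, and was tested on simulated data. Of the pathway list, genes called in KO against WT that reached 5 CPM in the higher of the libraries are named, and others named were chosen after their values were seen. For the most similar genes, candidates had at least 1000 UMIs in every library and pools at least 50000. Members, marker lists and pathway lists were chosen with earlier results of these data known. Gene spans came from GENCODE M21, which matched 30329 of the IDs. Alternatives covered scaling, barcodes summed, the UMI minimum, the fold and the marker-rich threshold. The lacripep arm named in the series text was not analysed here. Calculations used scipy 1.17.1 and numpy 2.4.6 with pandas 2.3.3, and plots matplotlib 3.10.9, under Python 3.11.15.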

Additional observations from a re-analysis of the deposited data

How the results depend on the processing

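With 1 library per group no library could be left out, and depth limits the marker-rich values, many of which rest on fewer than 50 UMIs. No paired analysis was possible because each group is 1 library and no result comes from a test. Over the 9 alternatives, 240 of 270 log2 ratios of a gene in a comparison kept their direction and side of the rule. That total is uneven, since of the 30 ratios in each alternative centring kept only 11. Dropping the UMI minimum could change none of the 30, because all 10 genes passed it in every comparison. Restriction to called barcodes left nearly all UMIs of the genes in place. Centring on the median gene gave 5 genes lower in KO_PBS against KO, and 0 higher and 5 lower in KO_PBS against WT, where Tgfa reversed to −0.18. Erbb4 was no longer called when centred (0.93 in KO against WT and 0.79 in KO_PBS against WT). A fold of 1.5 gave 4 genes higher (Egfr added) and 1 lower (Btc) in KO against WT, beside 34.6% and 15.8% of all genes. In KO_PBS against KO it gave 1 higher (Erbb4) and 4 lower, beside 50.9% and 8.59%. In KO_PBS against WT it gave 4 higher and 2 lower, beside 68.6% and 7.53%. The 25% of barcodes with the fewest UMIs gave 3 higher and 2 lower in KO_PBS against WT, beside 45.1% and 4.3% of all genes. Areg at 1.21 and Egfr at −1.03 were added there, and the cause was not tested. Scaling without mitochondrial, immunoglobulin and crystallin genes, called barcodes only, the deeper part of the barcodes, no UMI minimum, removal of lens, retina and muscle marker-rich barcodes and, added after seeing the data, removal of barcodes shared between libraries changed no call. Over the marker-rich thresholds, pairs of a gene and a list called higher ranged from 11 to 12 in WT, 4 to 5 in KO and 27 to 29 in KO_PBS. With barcodes rich in exactly 1 list they were 12, 4 and 23.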
